A study of Mus musculus with 6 samples.

Results

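The 10 genes described here act in cytosolic palmitate synthesis, in its supply of carbon and reducing power, or in the carboxylation of acetyl-CoA. They were taken by symbol from the deposited matrix of FPKM values (fragments scaled to transcript length and library size), and all 10 are among its 22851 genes and passed the filter on low values. They are Slc25a1, Acly, Acss2, Aacs, Acaca, Acacb, Thrsp, Mid1ip1, Fasn and Me1. Liver RNA came from male C57BL/6J mice, an inbred strain, and animals of both groups received a high-fat diet. The treated mice were injected subcutaneously with ONX-0914 at 10 mg/kg every other day over 6 weeks (libraries ONX-0914 1, 3 and 4). ONX-0914 is an inhibitor of the immunoproteasome subunit PSMB8. The other mice received vehicle (libraries vehicle 1, 2 and 4). The design text speaks of 2 biological replicates in each group while 3 libraries are given, and libraries are not tied to animals, so p-values measure the spread between libraries, which may be technical. Values of a gene are listed in the order of those library numbers. The animals' age is not given. No group on another diet was analysed here, and bulk liver RNA cannot tell fewer cells of a type from less RNA per cell.

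De novo lipogenesis turns surplus carbohydrate into fatty acids. Citrate leaves the mitochondria and is split to acetyl-CoA, acetyl-CoA is carboxylated to malonyl-CoA, and fatty acid synthase joins these units with NADPH into palmitate. In liver the genes are known targets of SREBP1c, which insulin activates, and of ChREBP, which responds to sugar, and the pathway runs high in fatty liver.

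Positions, and the exon number of the longest transcript, follow GENCODE M21 (GRCm38). The genes of carbon supply are Slc25a1, Acly, Acss2 and Aacs. Slc25a1 is on chromosome 16 (17925223 to 17928219, minus strand, 9 exons) and Acly on chromosome 11 (100476353 to 100528000, minus strand, 29 exons). Acss2 is on chromosome 2 (155517948 to 155585724, plus strand, 18 exons) and Aacs on chromosome 5 (125475814 to 125517410, plus strand, 18 exons). The carboxylases are Acaca on chromosome 11 (84129672 to 84401651, plus strand, 56 exons) and Acacb on chromosome 5 (114146535 to 114250761, plus strand, 53 exons), and their partners Thrsp on chromosome 7 (97412938 to 97417730, minus strand, 2 exons) and Mid1ip1 on chromosome X (10715013 to 10719690, plus strand, 2 exons). The synthase is Fasn on chromosome 11 (120805846 to 120824547, minus strand, 43 exons), and the malic enzyme gene Me1 on chromosome 9 (86581371 to 86695953, minus strand, 14 exons).

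Each of the 10 genes fell with ONX-0914, and in each of them every treated library was below every vehicle library. The summed level of the 10 genes was 352, 648 and 549 FPKM in the ONX-0914 livers, against 3143, 3128 and 1764 FPKM in the vehicle livers. As a share of all FPKM this was 0.0307%, 0.0622% and 0.0440% in the treated libraries, against 0.316%, 0.311% and 0.164% in the vehicle libraries. Of 10743 genes tested with limma on log2(FPKM + 1), 43.5% were called lower at a Benjamini-Hochberg adjusted p under 0.05, and 53.5% had every treated value below every vehicle value. A fall without overlap was thus common in these libraries, so the counts alone say little of these genes. Their median log2 fold change was -2.55, against -0.64 for all genes tested. The share of tested genes with a lower log2 fold change was 0.363% for Acss2, 0.456% for Acaca, 0.586% for Acly, 0.903% for Me1, 1.07% for Thrsp, 1.18% for Acacb and 1.73% for Fasn. It was 5.90% for Aacs, 6.87% for Mid1ip1 and 40.8% for Slc25a1. These places depend on the value added before the logarithm: with 0.1 in place of 1 the share was 6.05% for Fasn, 4.89% for Thrsp, 4.33% for Me1, 2.51% for Acly and 1.90% for Acss2, and with 5 it was 3.71% for Acacb and 2.05% for Acaca. They also depend on single libraries. Without vehicle 1 the share was 3.99% for Fasn and 2.94% for Me1, and without vehicle 2 it was 2.00% for Thrsp. For Aacs it was 12.5% without ONX-0914 3 and 2.64% without vehicle 4, and for Mid1ip1 14.7% without ONX-0914 1 and 2.86% without ONX-0914 4.

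**Figure D1:**
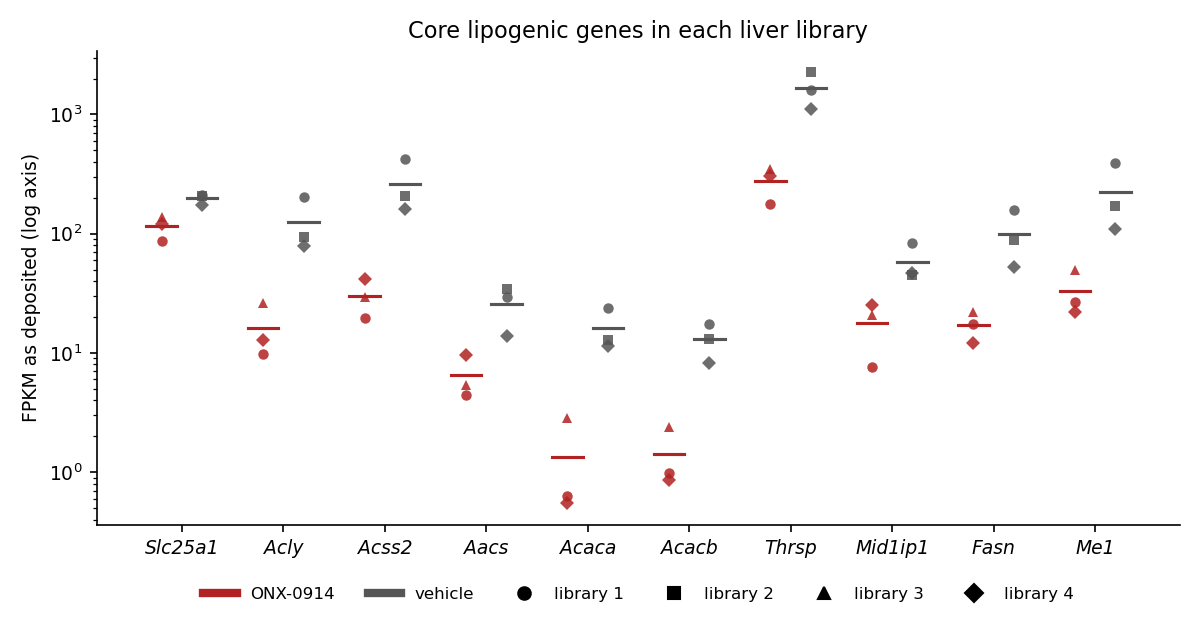
FPKM of each gene (log axis) in the ONX-0914 libraries (red) and the vehicle libraries (grey), with symbols for library numbers and bars for group means (n = 3 each). In every gene the red symbols lie below the grey ones, widely apart for Acss2 and close for Slc25a1.

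**Figure D2:**
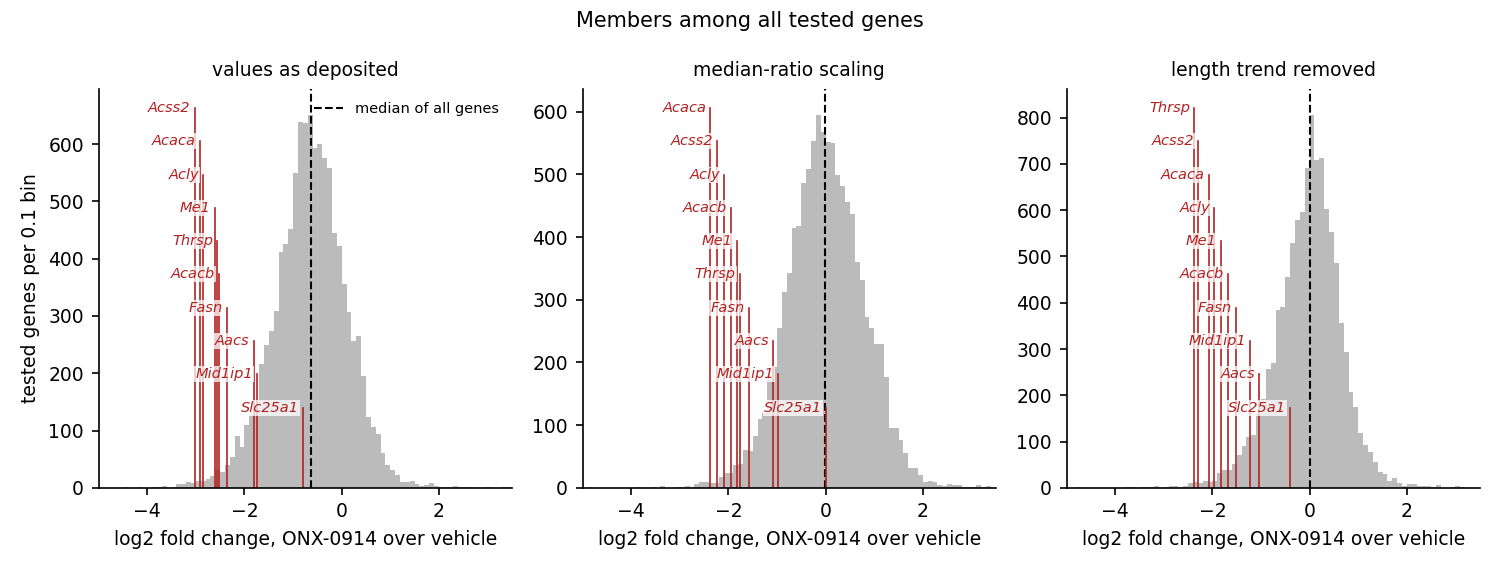
Histograms of the log2 fold change (ONX-0914 over vehicle) of all tested genes, with the 10 genes as red lines whose heights only separate the labels, for values as deposited, after median-ratio scaling and with the length trend removed. The dashed median of all genes is at -0.64, -0.01 and 0.02, and Slc25a1 is the gene nearest to it in each panel.

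The libraries differed in ways that touch these values. FPKM summed to between 1041391 and 1247789 per treated library and between 993264 and 1074027 per vehicle library. Read totals are not given. The ratios of the lowest values of short genes put the estimated depth relative to vehicle 1 at 0.86 to 1.03 in treated libraries. In vehicle libraries it was 1.00 to 1.28. These are rough estimates, from 36 to 41 genes per treated library and from 72 and 64 in vehicle 2 and 4. ONX-0914 3 stood apart: the leading principal component, 77.3% of the variance, placed it at 10.6, ONX-0914 1 and 4 at 73.9 and 67.8, and vehicle at -56.1 to -47.2. Long transcripts were also lower relative to short ones in the treated libraries. The 25% longest transcripts minus the 25% shortest gave a median deviation of -0.95, -0.25 and -0.99 on the log2 scale in the ONX-0914 livers, and of -0.03 to 0.04 in the vehicle livers. The results are therefore also given with each library divided by its median ratio to the geometric mean of tested genes, and with the length trend of each library removed.

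Of the hepatocyte markers, Alb had 31522, 36265 and 17654 FPKM in the ONX-0914 livers and between 44524 and 47971 FPKM in vehicle, so the labelled tissue was plain in every library. The 10 hepatocyte markers summed to 55810 to 86070 FPKM in treated and 79280 to 85060 FPKM in vehicle libraries, with 4 called lower and 1 higher as deposited, where 43.5% and 2.56% of tested genes were. After median-ratio scaling, and with the length trend removed, none of the 10 was lower and 3 were higher. Fat tissue also expresses lipogenic genes. Its markers Lep, Retn, Plin1 and Ucp1 were listed at 0 in all libraries, and Adipoq was at 0 apart from 0.21 FPKM in vehicle 2. All 10 fat markers, some of which liver expresses too, summed to 222 to 1071 FPKM in treated and 257 to 642 FPKM in vehicle libraries, most of it Pck1, which liver uses for gluconeogenesis. Of the 4 that passed the filter 1 was called lower as deposited and none higher. After median-ratio scaling, and with the length trend removed, 1 was lower and 1 higher. The higher one was Cidec, at 1.07 and 0.90 on the log2 scale (adjusted p = 0.0134 and 0.0251 by limma). As deposited Cidec was at 0.50 (adjusted p = 0.159 by limma). The lower one was Fabp4 each time, a fatty acid binding protein gene of fat cells that endothelium and macrophages express too. Fabp4 had 16.5, 10.3 and 6.91 FPKM in the ONX-0914 livers, against 45.0, 50.02 and 76.4 FPKM in the vehicle livers (log2 fold change -2.29 as deposited, -1.52 after median-ratio scaling), and its part in the values of the 10 genes was not tested. The summed level of 10 endothelial markers was 36.2 to 66.4 FPKM in treated and 180 to 195 FPKM in vehicle libraries, and that of 10 macrophage markers was 592 to 827 FPKM in treated and 1217 to 1902 FPKM in vehicle libraries. All 10 endothelial and 7 macrophage markers were called lower as deposited, 7 and 4 after median-ratio scaling, and 8 and 5 with the length trend removed, where 43.5%, 14.2% and 11.7% of tested genes were. The part of these cells in the values below was not tested. Hnf4a, a hepatocyte transcription factor gene, had 6.26, 40.7 and 5.94 FPKM in the ONX-0914 livers and 51.7 to 68.6 FPKM in vehicle, and its part was not tested either. In ONX-0914 3 Hnf4a and the 10 genes were below every vehicle library, as were 64.6% of tested genes.

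The first, second and last steps of the route are shown by their upstream sequence, since the carrier gene fell least, the lyase gene next to it fell by much more, and the synthase closes the pathway. The sequences are the 250 bases before the RefSeq start (GRCm38.p6), 5′ to 3′ on the gene's strand. Capitals mark CCAAT or GGGCGG on either strand, which NF-Y and Sp1 are known to bind, factors that work with SREBP at lipogenic promoters.
Slc25a1 (chr16:17928220-17928469, minus strand): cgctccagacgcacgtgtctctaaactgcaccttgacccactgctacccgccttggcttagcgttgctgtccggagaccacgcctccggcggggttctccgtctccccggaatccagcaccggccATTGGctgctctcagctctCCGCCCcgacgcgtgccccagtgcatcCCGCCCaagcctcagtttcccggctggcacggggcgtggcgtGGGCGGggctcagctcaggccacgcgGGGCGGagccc
Acly (chr11:100528001-100528250, minus strand): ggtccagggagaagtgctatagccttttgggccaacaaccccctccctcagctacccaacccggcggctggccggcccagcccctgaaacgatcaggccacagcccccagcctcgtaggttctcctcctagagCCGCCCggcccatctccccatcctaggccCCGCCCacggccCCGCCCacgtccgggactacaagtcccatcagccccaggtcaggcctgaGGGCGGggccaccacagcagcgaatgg
Fasn (chr11:120824548-120824797, minus strand): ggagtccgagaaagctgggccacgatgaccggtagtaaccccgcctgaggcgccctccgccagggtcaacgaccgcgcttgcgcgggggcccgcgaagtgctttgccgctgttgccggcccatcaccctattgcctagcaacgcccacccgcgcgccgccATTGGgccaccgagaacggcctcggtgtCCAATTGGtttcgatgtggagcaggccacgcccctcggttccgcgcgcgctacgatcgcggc
The Slc25a1 window held 1 CCAAT and 4 GGGCGG matches, the Acly window 0 and 4, and the Fasn window 3 and 0, with 2 of the Fasn CCAAT matches overlapping on opposite strands. Over all 11 RefSeq windows of the 10 genes (Me1 has 2), CCAAT was in 6 and GGGCGG in 5, against 33.8% and 32.7% of 32851 windows of all genes. CACGTG, an E-box, was in the Slc25a1 window alone (6.02% of all windows), and TCACNCCAC, a form of the sterol regulatory element, in none of the 11 (1.05%). The RefSeq starts of the Acaca and Acacb windows lie far inside the GENCODE gene models, 65766 and 18983 bases from their starts. Those of the second Me1 window and of the Mid1ip1 window lie 8676 and 2352 bases inside. The only CCAAT match of Me1 is in that second window. Matches in these windows thus say nothing of the outer promoters.

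Slc25a1, the mitochondrial citrate carrier that brings citrate to the cytosol, fell least. It was at 87.3, 138 and 121 FPKM in the ONX-0914 livers, against 211, 208 and 174 FPKM in the vehicle livers. The groups did not overlap, but the highest treated value was 79.4% of the lowest vehicle value. The log2 fold change was -0.79 ± 0.22 (SE, adjusted p = 0.0183 by limma), close to the -0.64 of the median gene. This call ended after median-ratio scaling, where the value was 0.0047 (adjusted p = 0.988 by limma), and once the length trend was taken out (-0.41, adjusted p = 0.173 by limma). It also ended without vehicle 1 or 2 (adjusted p = 0.0767 and 0.0711 by limma).

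Acly, ATP-citrate lyase, splits that citrate into acetyl-CoA and oxaloacetate. It was at 9.87, 26.0 and 12.8 FPKM in the ONX-0914 livers, against 202, 93.6 and 78.9 FPKM in the vehicle livers. The treated mean was 13.0% of the vehicle mean, and the log2 fold change was -2.86 ± 0.42 (SE, adjusted p = 0.00199 by limma). Vehicle 1 stood above the other vehicle libraries. The vehicle libraries spanned a factor of 2.56, while the vehicle mean was 7.70 times the treated mean. Acly passed in all settings tried, at -2.09 after median-ratio scaling and -1.97 with the length trend removed.

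Acss2 makes acetyl-CoA from acetate in the cytosol and nucleus, the alternative to citrate. It was at 19.5, 29.2 and 41.4 FPKM in the ONX-0914 livers, against 424, 207 and 160 FPKM in the vehicle livers. Its log2 fold change of -3.03 ± 0.38 (SE, adjusted p = 0.00149 by limma) was -2.24 after median-ratio scaling. Here ONX-0914 4, not ONX-0914 3, was the highest treated library, and ONX-0914 3 alone against vehicle gave -3.00. Acss2 shares 395 exon bases with Gss, glutathione synthetase, on the opposite strand. Gss was at 138, 91.5 and 90.5 FPKM in treated and 38.0, 47.8 and 49.4 FPKM in vehicle libraries. It is not stated whether counting used the strand, so reads of Gss within Acss2 cannot be told apart.

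Aacs, acetoacetyl-CoA synthetase, activates acetoacetate in the cytosol for lipid synthesis. It was at 4.40, 5.41 and 9.61 FPKM in the ONX-0914 livers, against 29.4, 34.4 and 13.9 FPKM in the vehicle livers. Vehicle 4 was low and ONX-0914 4 high, so the highest treated value was 69.4% of the lowest vehicle value. The log2 fold change was -1.81 ± 0.38 (SE, adjusted p = 0.00631 by limma). It did not pass after median-ratio scaling (-1.08, adjusted p = 0.0755 by limma) or once the length trend was taken out (-1.04, adjusted p = 0.0931 by limma).

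The 2 acetyl-CoA carboxylase genes fell, to under 1 FPKM in ONX-0914 1 and 4. Acaca encodes the cytosolic enzyme whose malonyl-CoA feeds fatty acid synthase. It was at 0.63, 2.86 and 0.55 FPKM in the ONX-0914 livers, against 23.9, 12.7 and 11.5 FPKM in the vehicle livers. The treated mean was 8.40% of the vehicle mean, the smallest such share among the 10 genes, and the log2 fold change was -2.92 ± 0.42 (SE, adjusted p = 0.00184 by limma). Acacb encodes the enzyme at the outer mitochondrial membrane whose malonyl-CoA restrains fatty acid entry through CPT1. It was at 0.99, 2.39 and 0.86 FPKM in the ONX-0914 livers, against 17.6, 13.0 and 8.30 FPKM in the vehicle livers, a log2 fold change of -2.53 ± 0.35 (SE, adjusted p = 0.00172 by limma). In both genes ONX-0914 3 was the highest treated library, at 24.9% and 28.8% of the lowest vehicle value. The added value of 1 shrinks changes at such levels. With 0.1 in its place the log2 fold changes of Acaca and Acacb were -3.77 and -3.18, and with 5 they were -1.70 and -1.46. Their transcripts are long, 9513 and 8788 bases, and with the length trend removed they were at -2.08 and -1.67 (adjusted p = 0.00624 and 0.00736 by limma).

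Thrsp and Mid1ip1 are small paralogous proteins without known enzyme activity. MID1IP1 promotes polymerisation and activity of acetyl-CoA carboxylase, and THRSP, long known as a thyroid hormone responsive gene of lipogenic tissue, pairs with it. Thrsp was the most abundant of the 10 genes, at 178, 352 and 304 FPKM in the ONX-0914 livers, against 1603, 2258 and 1110 FPKM in the vehicle livers. It alone made up 50.4% to 55.4% of the summed level of the 10 genes in treated libraries and 51.0% to 72.2% in vehicle libraries. Its log2 fold change was -2.57 ± 0.32 (SE, adjusted p = 0.00149 by limma). Its transcript is short (1277 bases), and the value was -1.77 after median-ratio scaling and -2.38 with the length trend removed. Mid1ip1 was at 7.61, 20.7 and 25.3 FPKM in the ONX-0914 livers, against 83.1, 45.0 and 47.0 FPKM in the vehicle livers. Its log2 fold change was -1.75 ± 0.42 (SE, adjusted p = 0.0103 by limma), and the treated libraries differed among themselves by a factor of 3.33. Mid1ip1 did not pass after median-ratio scaling (-0.98, adjusted p = 0.109 by limma) or once the length trend was taken out (-1.23, adjusted p = 0.0631 by limma).

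Fasn, the multifunctional synthase that builds palmitate, was at 17.5, 21.9 and 12.1 FPKM in the ONX-0914 livers, against 157, 88.3 and 52.4 FPKM in the vehicle livers. The treated libraries lay close together while the vehicle libraries spanned a factor of 2.99. The treated mean of 17.2 ± 4.94 FPKM was 17.3% of the vehicle mean of 99.1 ± 53.0 FPKM (SD, n = 3 each). The log2 fold change was -2.36 ± 0.38 (SE, adjusted p = 0.00261 by limma). It was -1.58 after median-ratio scaling and -1.52 once the length trend was taken out (adjusted p = 0.0177 and 0.0232 by limma).

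Me1, cytosolic malic enzyme, turns malate to pyruvate and supplies NADPH to the synthase. It was at 26.7, 49.6 and 21.9 FPKM in the ONX-0914 livers, against 392, 169 and 109 FPKM in the vehicle livers. The vehicle spread, a factor of 3.61, was the widest among the 10 genes. The log2 fold change was -2.61 ± 0.45 (SE, adjusted p = 0.00326 by limma), and -1.83 both after median-ratio scaling and with the length trend removed.

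**Figure D3:**
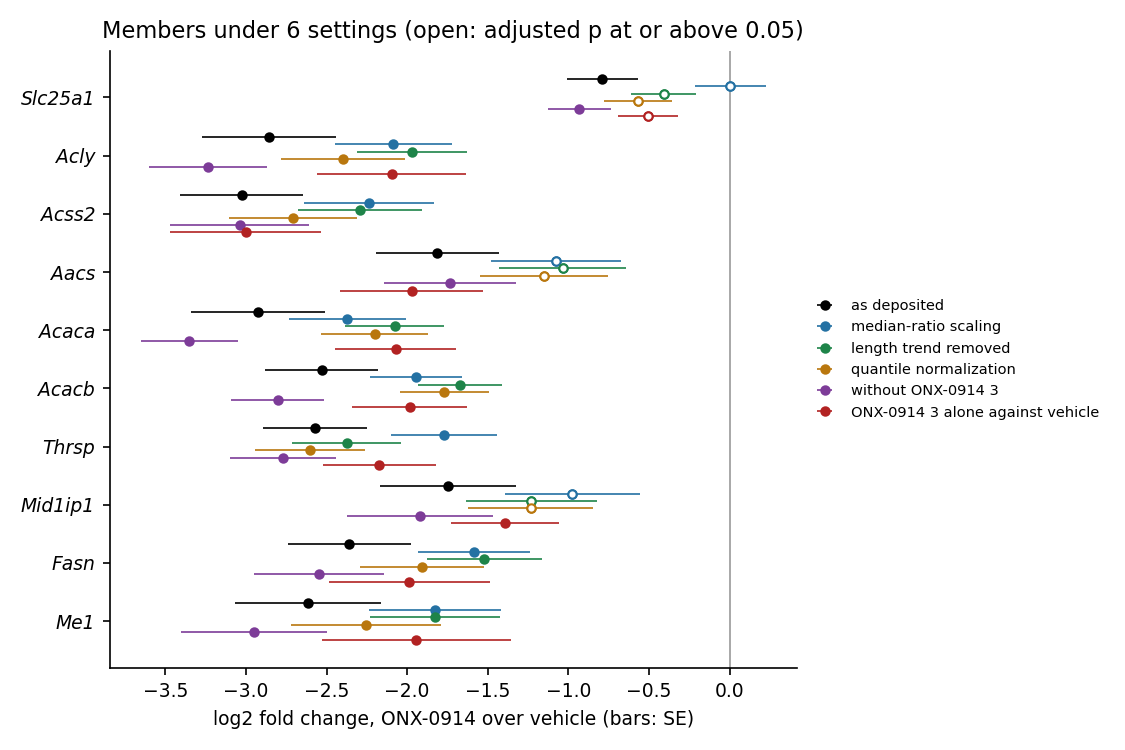
Log2 fold change (ONX-0914 over vehicle) with its SE for each gene under 6 settings, from values as deposited to ONX-0914 3 alone against vehicle; open symbols did not pass at an adjusted p of 0.05. Open symbols occur for Slc25a1, Aacs and Mid1ip1, and only for Slc25a1 does a symbol reach 0.

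**Figure D4:**
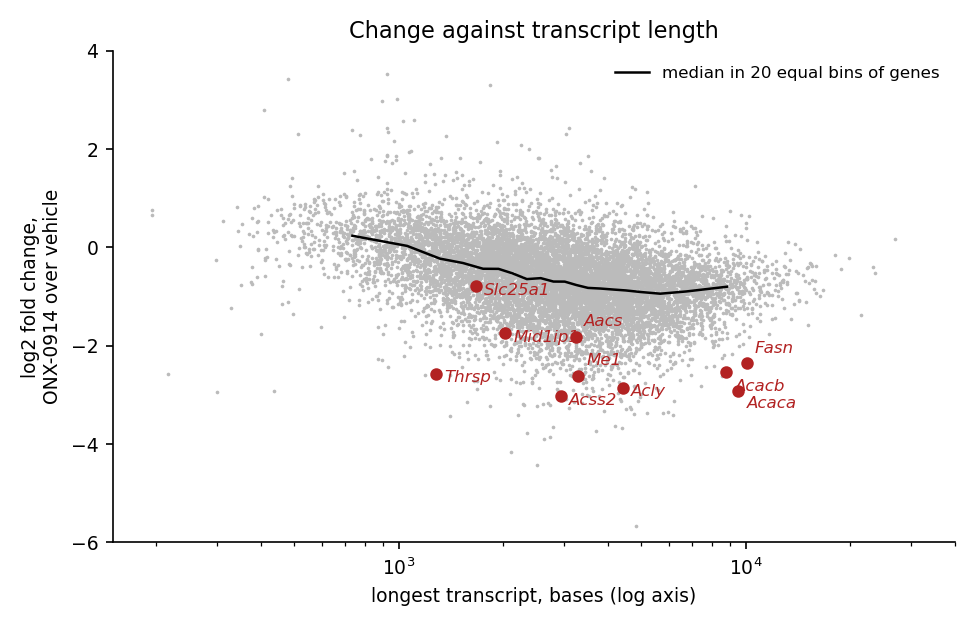
Log2 fold change of tested genes (ONX-0914 over vehicle) against the length of their longest transcript (log axis), with the median over 20 equal bins of genes as a line and the 10 genes in red. The line runs downward with length; Thrsp lies far below it among short transcripts, and Slc25a1 lies near it.

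The order of libraries within the groups was compared with that of all tested genes. Vehicle 1 was the highest vehicle library for 8 of the 10 genes, the exceptions being Thrsp and Aacs, and vehicle 4 was the lowest for 9, the exception being Mid1ip1. Over all tested genes vehicle 1 was the highest for 43.2% and vehicle 4 the lowest for 42.5%. Of the treated libraries ONX-0914 3 was highest for 7 and ONX-0914 4 for Acss2, Mid1ip1 and Aacs, where these libraries were highest for 61.4% and 16.1% of tested genes. The shift of whole libraries ran the same way, with median-ratio factors of 0.698, 0.962 and 0.670 in the ONX-0914 livers and 1.40, 1.34 and 1.28 in the vehicle livers, and its part in this order was not tested. Outside the 10 genes, those nearest to their mean profile over the 6 libraries were Htatsf1, Naf1, Hvcn1, C1qtnf7 and Ankmy2, with Pearson r of 0.996 to 0.998. The median tested gene had 0.799. The 6 points share the difference between groups, so these values describe likeness alone. Levels can be ordered between genes within a library, since FPKM is per length. Long transcripts were lower relative to short ones in the treated libraries, however. The longest transcripts of Slc25a1, Mid1ip1, Acss2 and Acly have 1666, 2022, 2931 and 4426 bases. The part of length in the changes of rank was not tested. By group mean Slc25a1 stood at rank 2 of the 10 genes in treated livers and at rank 4 in vehicle livers, and Mid1ip1 at 5 in treated and 7 in vehicle livers, while Acss2 stood at rank 4 in treated and 2 in vehicle livers and Acly at 7 in treated and 5 in vehicle livers. In treated libraries the Slc25a1 range of 87.3 to 138 FPKM lay apart from that of Me1, next in order at 21.9 to 49.6 FPKM. In vehicle libraries its range of 174 to 211 FPKM overlapped those of Acss2, Me1 and Acly. Thrsp stood above all the others in both groups without overlap. Acaca and Acacb were the lowest by mean in both groups, and overlapped each other. In vehicle libraries the Aacs range of 13.9 to 34.4 FPKM overlapped both of theirs.

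Ratios between paired genes do not depend on a single scaling factor per library, and 3 were compared. A shift with transcript length can still move them, and they were not corrected for it. The longest transcripts have 8788 and 9513 bases for Acacb and Acaca, and 2931 and 4426 for Acss2 and Acly. For Thrsp and Mid1ip1 they have 1277 and 2022 bases. The Acacb to Acaca ratio came to 1.57, 0.836 and 1.56 in the ONX-0914 livers, against 0.736, 1.02 and 0.723 in the vehicle livers. The groups overlapped through ONX-0914 3, and the mean log2 difference of 0.64 had p = 0.2 in a two-sided exact permutation test (adjusted p = 0.3 over the 3 ratios), where 0.1 is the smallest p possible. The Acss2 to Acly ratio was 1.98, 1.12 and 3.24 in treated libraries, against 2.10, 2.21 and 2.02 in vehicle libraries. The treated values lay on both sides of a narrow vehicle range, with a mean log2 difference of -0.13 (exact permutation p = 0.7, adjusted p = 0.7). Without ONX-0914 3 that difference was 0.26. The Thrsp to Mid1ip1 ratio was 23.3, 17.0 and 12.0 in treated libraries, against 19.3, 50.1 and 23.6 in vehicle libraries, a mean log2 difference of -0.75 (exact permutation p = 0.2, adjusted p = 0.3). It was -0.34 without vehicle 2. No difference in these ratios was thus detectable with 3 libraries per group, which does not show that the paired genes fell alike.

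Counted over the 10 genes, all 10 passed as deposited, where 43.5% of tested genes were called lower. After median-ratio scaling 7 passed, where 14.2% of tested genes were called lower, and the median log2 fold change was -1.80, against -0.01 for all genes. With the length trend removed 7 passed, against 11.7% of tested genes, with a median of -1.75, against 0.02. The 3 that did not pass were Slc25a1, Aacs and Mid1ip1 in both settings. With ONX-0914 3 alone against vehicle 9 passed, all but Slc25a1, where 27.9% of tested genes were called lower. Quantile normalization gave 7 of the 10, where 12.4% of tested genes were called lower. That the 10 genes passed under the remaining settings is read against a background of 40.3% and 45.6% of tested genes called lower with 0.1 and 5 in place of 1, 29.1% with no filter, 42.2% with a filter on the mean, 47.6% with equal sums, 43.6% in a robust fit and 55.6% with a replicate block. Leaving out ONX-0914 1, 3 or 4 gave 29.8%, 60.6% and 28.2%, all 10 genes passing. Leaving out vehicle 1, 2 or 4 gave 24.1%, 26.4% and 27.6%, with 9, 9 and 10 of the genes passing. Few genes were called higher, 2.56% as deposited, while 13.8% were after median-ratio scaling and 9.38% with the length trend removed. The single-library setting takes its spread from the vehicle libraries and assumes that the lone library varies as they do.

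For all tested genes the shares called lower were 43.5% as deposited, 14.2% after median-ratio scaling and 11.7% with the length trend removed, those called higher 2.56%, 13.8% and 9.38%, and the medians -0.64, -0.01 and 0.02. Most genes of the steps that modify or use long-chain fatty acids, palmitate among them, fell as deposited. Of 22 tested genes of elongation, desaturation, activation and esterification, 18 were lower and none higher, with a median log2 fold change of -1.72. After median-ratio scaling 12 were lower and 2 higher (median -0.97), and with the length trend removed 13 were lower and 1 higher (median -1.04). Elovl6, which extends palmitate to stearate, was at 1.73, 6.69 and 2.68 FPKM in the ONX-0914 livers, against 59.6, 40.6 and 31.5 FPKM in the vehicle livers. Its log2 fold change was -3.35 ± 0.40 (SE, adjusted p = 0.00135 by limma). Scd1, which makes monounsaturated products, had a log2 fold change of -5.66. It was -3.65 for Elovl5, an elongase of polyunsaturated chains, and -3.40 for Gpam, the first step of glycerolipid synthesis.

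Of 10 tested genes of NADPH supply other than Me1, 7 were lower and none higher as deposited (median -1.17), then 1 lower and 1 higher after median-ratio scaling, and 1 lower and none higher with the length trend removed. Both rescaled counts are near the shares of all tested genes. G6pdx, which opens the pentose phosphate pathway, was at 4.67, 1.86 and 2.74 FPKM in the ONX-0914 livers, against 21.7, 10.4 and 8.99 FPKM in the vehicle livers (log2 fold change -1.81 ± 0.38 SE, adjusted p = 0.00641 by limma). H6pd, which starts the same route inside the endoplasmic reticulum, was at 7.79, 36.5 and 7.81 FPKM in the ONX-0914 livers and 47.1 to 49.5 FPKM in the vehicle livers, with ONX-0914 3 apart from the other 2 (log2 fold change -1.78, adjusted p = 0.0183 by limma, and -0.39 with ONX-0914 3 alone). Pgd, the next NADPH-forming enzyme of the pathway, was at -1.38 on the log2 scale (adjusted p = 0.00553 by limma). G6pdx, H6pd and Pgd did not pass after median-ratio scaling (adjusted p = 0.0678, 0.0966 and 0.168 by limma) or once the length trend was taken out (adjusted p = 0.0739, 0.128 and 0.0703 by limma). Rpia, ribose-5-phosphate isomerase, was the gene that passed as lower in both of these settings (-0.73 and -0.85).

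Of 21 tested genes that bring pyruvate to citrate or handle acetyl-CoA elsewhere, 16 were lower and none higher (median -1.02, against -0.64 for all tested genes, of which 43.5% were lower). After median-ratio scaling 6 were lower and 2 higher, and with the length trend removed 8 were lower and 1 higher. Pdk1, a kinase that inhibits pyruvate dehydrogenase, was at 1.78, 3.08 and 2.21 FPKM in the ONX-0914 livers, against 40.0, 28.9 and 32.1 FPKM in the vehicle livers (log2 fold change -3.37 ± 0.26 SE, adjusted p = 0.000675 by limma). Pdha1, which encodes the subunit of pyruvate dehydrogenase that this kinase acts on, had a log2 fold change of -2.34, and Pdk2, a related kinase, one of -2.18. Acss3, a mitochondrial acyl-CoA synthetase, was listed at 0.28, 0 and 0.04 FPKM in the ONX-0914 livers, against 3.21, 2.38 and 4.59 FPKM in the vehicle livers.

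Of 15 tested genes that control acetyl-CoA carboxylase or use malonyl-CoA, 7 were lower and none higher as deposited (median -0.87), 4 lower and 3 higher after median-ratio scaling, and 3 lower and 3 higher with the length trend removed. As deposited this is near the 43.5% of all tested genes, where after rescaling both directions occurred as well. Cpt1a, the mitochondrial entry enzyme that malonyl-CoA inhibits, was at 2.56, 23.7 and 5.69 FPKM in the ONX-0914 livers, against 48.3, 56.7 and 59.5 FPKM in the vehicle livers (log2 fold change -2.73 ± 0.58 SE, adjusted p = 0.00631 by limma). ONX-0914 3 stood apart here, with -1.17 when set alone against vehicle. Prkaa2 and Prkag2, subunit genes of AMP-activated protein kinase, which phosphorylates and inhibits the carboxylases, had log2 fold changes of -1.56 and -1.34, and Cab39, part of a complex that activates this kinase, one of -1.98. Prkag2 did not pass after median-ratio scaling (-0.64, adjusted p = 0.0614 by limma) or once the length trend was taken out (-0.55, adjusted p = 0.0949 by limma). The other tested subunit genes, Prkaa1, Prkab1 and Prkag1, did not pass as deposited (-0.81, -1.24 and -0.25, adjusted p = 0.0783, 0.0521 and 0.312 by limma). Of the other genes of the Cab39 complex, Strada and Stradb were each at -0.87 as deposited. Stk11 was at 0.18 (adjusted p = 0.497 by limma). After median-ratio scaling, and with the length trend removed, Stk11 was higher (0.96 and 0.84, adjusted p = 0.0266 and 0.0339 by limma). Strada and Stradb did not pass there. Btd was higher in both settings too, Mlycd in the first and Trib3 in the second.

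Mitochondria hold a separate fatty acid synthesis pathway that feeds lipoic acid synthesis. Of 9 tested genes of it 2 were lower, Oxsm (-1.67 ± 0.25 SE, adjusted p = 0.00214 by limma) and Mcat (-0.78, adjusted p = 0.0373 by limma), and the median was -0.34. After median-ratio scaling the median was 0.43, with Oxsm lower, 1 gene higher and Mcat at -0.04 (adjusted p = 0.927 by limma), and with the length trend removed it was 0.02, with Mcat at -0.29 (adjusted p = 0.388 by limma). Of 8 tested enzymes that make or use acetoacetate, as Aacs does, 7 were lower as deposited (median -1.06), 2 after median-ratio scaling and 1 with the length trend removed, the last being near the 11.7% of all tested genes. Hmgcs1 and Acat2, of the cytosolic route to cholesterol, had log2 fold changes of -2.11 and -1.17, and Oxct1 and Bdh1, of ketone body use and formation, -1.71 and -1.11. After median-ratio scaling Acat2 was at -0.39 and Bdh1 at -0.32 (adjusted p = 0.321 and 0.256 by limma). Once the length trend was taken out Acat2, Bdh1 and Hmgcs1 did not pass (adjusted p = 0.124, 0.189 and 0.0511 by limma).

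Among 19 tested genes of lipogenic transcription control, 12 were lower and none higher (median -0.86), while 4 were lower after median-ratio scaling and 2 with the length trend removed, against 14.2% and 11.7% of all tested genes. Srebf1, whose product is known to drive lipogenic genes, was at 28.8, 12.9 and 49.3 FPKM in the ONX-0914 livers, against 72.6, 57.9 and 41.5 FPKM in the vehicle livers. It overlapped between groups through ONX-0914 4 and did not pass (-1.05 ± 0.43 SE, adjusted p = 0.0686 by limma). After median-ratio scaling it was at -0.27, and with the length trend removed at -0.17 (adjusted p = 0.723 and 0.846 by limma). Its value depended on ONX-0914 3, at -2.04 with that library alone against vehicle (adjusted p = 0.00402 by limma) and -0.56 without it (adjusted p = 0.121 by limma). Mlxipl, which encodes ChREBP, came to -0.86 (adjusted p = 0.114 by limma), and to -1.35 without ONX-0914 3 (adjusted p = 0.00263 by limma). With ONX-0914 3 alone against vehicle Mlxipl was at 0.13, that library having 78.0 FPKM and the vehicle libraries 51.7 to 84.95 FPKM. After median-ratio scaling Mlxipl was at -0.08, and with the length trend removed at -0.04 (adjusted p = 0.880 and 0.948 by limma). Rxra, a partner of nuclear receptors, had a log2 fold change of -3.13. Insig1 and Insig2, which hold SREBP precursors in the endoplasmic reticulum, were at -2.03 and -1.61, and Foxo1, a factor that insulin inhibits, at -1.55. Insig2 did not pass after median-ratio scaling (-0.82, adjusted p = 0.158 by limma) or once the length trend was taken out (-0.92, adjusted p = 0.133 by limma), nor did Foxo1 in the second of these (adjusted p = 0.0662 by limma).

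**Figure D5:**
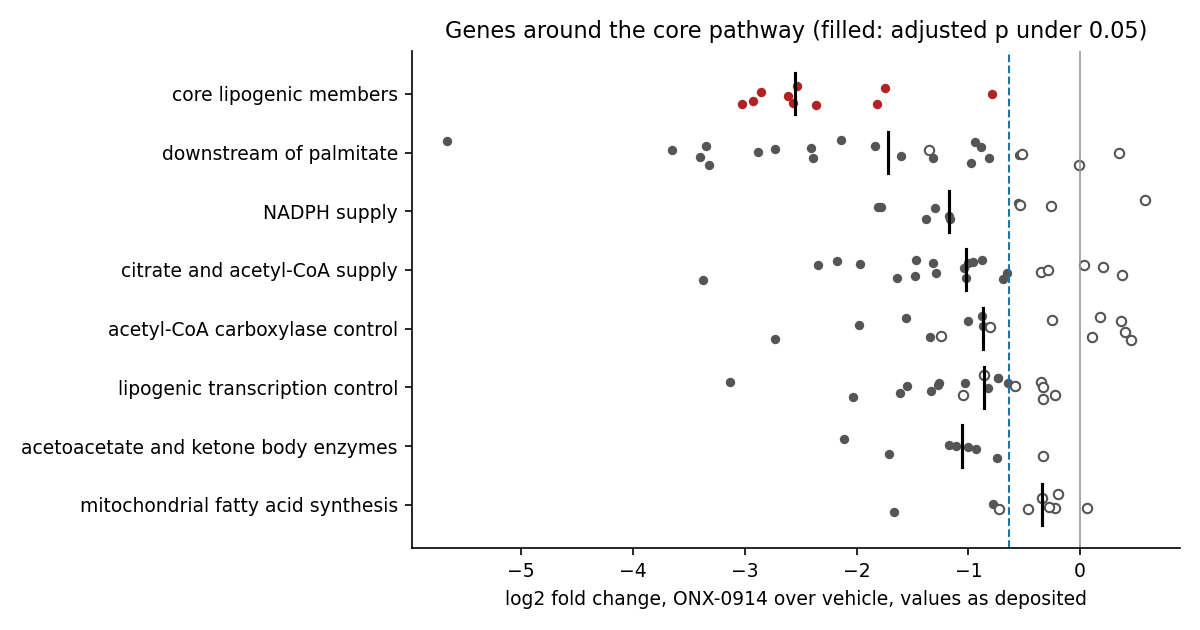
Log2 fold change as deposited (ONX-0914 over vehicle) of the tested genes of each list, one point per gene with random vertical offsets, filled where the adjusted p was under 0.05; black bars are list medians and the dashed line is the median of all tested genes (-0.64). The core genes have their median at -2.55, and the mitochondrial pathway has its at -0.34.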

How the data were processed

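Liver RNA from 6 libraries, 3 per group, was measured. Per the labels' protocols, mRNA was enriched from TRIzol-extracted RNA and sequenced. Tools listed without roles, per the submitters' processing notes, are HISAT2 2.0.1, featureCounts 1.6.0, edgeR, cutadapt 1.11 and FastQC 0.11.5, beside the builds mm10 and GRCm38. The authors deposited FPKM values with 2 decimals. Their unit was judged from the numbers. How they were scaled, the annotation and the use of strand are not given in the sources used here. Columns were matched to samples by title.

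Genes above 1 FPKM in at least 3 libraries (10743) were fitted on log2(FPKM + 1) with limma 3.58.1 in R 4.3.3 (variance trend, two-sided, no block), with adjustment over all genes tested. The added 1 makes fold changes of low genes too small. The length trend was a lowess curve (span 0.5) through the differences of a library from the mean vehicle value, over the longest GENCODE M21 transcript, known for 98.2% of tested genes, so it also centres each library. Gene positions and upstream sequences come from GENCODE M21 and RefSeq tables. The fit was tested on simulated data.

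The 10 genes, the other lists and the settings were chosen with earlier results of these data known. The genes named from each list are the called genes with the largest changes, up to 4 per list, plus Srebf1. The 5 genes nearest in profile to the 10 are named too. Others needed for a comparison (Mlxipl, Hnf4a, Alb, Gss, Pck1, Cidec, Prkaa1, Prkab1, Prkag1, Stk11, Strada, Stradb, Btd, Mlycd and Trib3) were added after their values were seen. Median-ratio scaling used tested genes above 0 in all libraries. Read totals are unknown, so no counting intervals are given.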

Additional observations from a re-analysis of the deposited data

How the results depend on the processing

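All 10 genes were also called lower with another pseudocount, no filter or a filter on the mean, equal sums, a robust fit, and a replicate block. The count was 9 to 10 leaving out single libraries, 9 with ONX-0914 3 alone, and 7 after median-ratio scaling, quantile normalization or removal of the length trend. Slc25a1 turned to 0.0047 after median-ratio scaling. Their median of -2.55 became -1.91 with a pseudocount of 5, -1.80 after median-ratio scaling, -1.75 without the length trend and -1.99 with ONX-0914 3 alone, and was -2.81 to -2.20 leaving out single libraries. Genes called lower, 4673, became 1528 after median-ratio scaling, 1334 quantile normalized, 1238 without the length trend, 2992 with ONX-0914 3 alone, and 2590 to 6514 leaving out single libraries (2590, 2840 and 2966 without vehicle 1, 2 and 4, and 3025 without ONX-0914 4). Genes called higher, 275, became 1481, 1118 and 990 in the first 3 of these settings, 172 with equal sums and 92 to 740 leaving out single libraries, each of the 6 moving it by over 1.5 times. The log2 difference in the Acss2 to Acly ratio, -0.13, was -0.50 to 0.26 leaving out single libraries. The cause of these shifts was not tested. Replicate numbers 1 and 4 occur in both groups, but no label says that they pair animals. Deviations of same-numbered libraries correlated at 0.00113 and 0.133. With the replicate block 5973 genes were lower, 604 higher, and the median of the 10 genes was -2.67, and 19.3% of tested genes had a lower log2 fold change than Aacs, against 5.90% without it. Absolute depth is unknown.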
